A study of Mus musculus with 11 samples.

Results

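A set of 10 genes of the meiotic chromosome axis and of synapsis was followed in whole testes of mice at postnatal day 5 (P5), before male germ cells enter meiosis. The genes were Sycp1, Sycp2, Sycp3, Syce2, Hormad1, Rec8, Smc1b, Meioc, Dmc1 and Stag3. They were chosen by symbol from the gene rows of the count tables, and all 10 were found among 33188 genes, or among 34276 features when 1088 transposable element (TE) subfamilies are added. All 10 passed the filter on low counts in each of the 9 comparisons made.

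The data were poly-A RNA sequencing counts of 11 libraries from 4 genotypes, all bred onto a C57Bl6/J background. There were 2 libraries of wild type (WT), 3 of Dnmt3CKO/KO (Dnmt3C KO), 3 labelled Nrf1KO/KO (Nrf1 cKO) and 3 labelled Dnmt3CKO/KO Nrf1KO/KO (dKO). DNMT3C is a DNA methyltransferase that acts on promoters of young retrotransposons in fetal male germ cells, and the Dnmt3C KO mice lack it in every cell. NRF1 is a transcription factor that binds a CG-rich motif when that motif is free of methylation. In Nrf1 cKO and dKO mice, 1 Nrf1 allele was a knockout in every cell and the other was floxed and removed by Ddx4-Cre, which acts only in germ cells and before birth, so that somatic cells kept a working allele. Controls were littermates where possible, and whether they carried Cre or a floxed allele is not given in the sources used here. The labels name the source germ cells with somatic cells, and the methods name it whole testis. The study calls the libraries biological replicates, made from testes of littermates, and does not say whether a library is 1 mouse or several.

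Meiotic chromosomes are folded into loops along a protein axis, which is built on cohesin rings and carries the filament proteins SYCP2 and SYCP3. HORMAD1 sits on axes that are not yet paired and is removed when the homologous chromosomes are zipped together. That zip, the synaptonemal complex, is spanned by SYCP1 and held in its middle by central element proteins such as SYCE2. REC8, SMC1B and STAG3 are cohesin subunits made in meiosis, whose counterparts in other dividing cells are RAD21, SMC1A and STAG1 or STAG2. DMC1 is a strand exchange protein of meiotic recombination and MEIOC keeps the meiotic transcript programme running, so these 2 proteins are not structural parts of the axis. Transcripts of several of these genes are known to appear in spermatogonia, ahead of the meiotic divisions.

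The promoters are shown first because the gene removed in the study encodes a transcription factor. RefSeq promoter sequences on GRCm38.p6, from 250 bases before to 50 bases after each annotated start, matched all 10 genes and gave 12 windows, since Syce2 and Hormad1 have 2 starts each. The windows were searched on both strands for the NRF1 motif, the E-box CACGTG, the E2F-type motif TCCCGC and the CRE-type motif TGACG. The NRF1 motif was found in windows of 2 of the 10 genes, Hormad1 and Stag3, and in 4.6% of all 32851 promoter windows. Hormad1 (chr3:95559427-95559726, + strand) and Stag3 (chr5:138280259-138280558, + strand) are printed because they hold that motif, Sycp3 (chr10:88459337-88459636, + strand) because it holds 2 E-boxes, and Sycp1 (chr3:102936051-102936350, - strand) because it holds an E-box and no NRF1 motif. Capitals mark NRF1 motifs, E-boxes and E2F-type motifs on either strand, which do not overlap each other in these windows.
Hormad1: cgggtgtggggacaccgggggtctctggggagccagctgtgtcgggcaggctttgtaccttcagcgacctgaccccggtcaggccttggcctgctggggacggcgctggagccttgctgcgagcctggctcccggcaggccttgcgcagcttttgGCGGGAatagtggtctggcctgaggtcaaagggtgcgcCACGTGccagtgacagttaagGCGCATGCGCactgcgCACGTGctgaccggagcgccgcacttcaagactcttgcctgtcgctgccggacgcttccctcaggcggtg
Stag3: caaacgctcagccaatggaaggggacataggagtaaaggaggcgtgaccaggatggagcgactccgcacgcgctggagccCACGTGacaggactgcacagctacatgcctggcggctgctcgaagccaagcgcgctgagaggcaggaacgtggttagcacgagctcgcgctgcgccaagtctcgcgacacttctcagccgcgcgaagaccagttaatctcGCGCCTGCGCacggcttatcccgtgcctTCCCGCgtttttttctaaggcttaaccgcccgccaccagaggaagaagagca
Sycp3: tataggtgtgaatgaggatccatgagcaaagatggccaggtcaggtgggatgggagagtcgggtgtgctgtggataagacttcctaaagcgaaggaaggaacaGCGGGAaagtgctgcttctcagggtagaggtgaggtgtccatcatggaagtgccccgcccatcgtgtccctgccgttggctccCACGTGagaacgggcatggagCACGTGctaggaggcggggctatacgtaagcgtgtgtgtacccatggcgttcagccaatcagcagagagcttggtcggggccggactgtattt
Sycp1: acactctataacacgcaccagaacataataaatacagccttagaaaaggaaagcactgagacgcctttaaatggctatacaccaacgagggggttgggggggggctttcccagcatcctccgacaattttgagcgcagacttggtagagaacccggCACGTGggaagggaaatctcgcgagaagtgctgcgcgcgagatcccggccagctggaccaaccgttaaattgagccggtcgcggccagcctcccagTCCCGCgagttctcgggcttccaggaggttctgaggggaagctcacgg

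The NRF1 match of Hormad1 began at position -36 and that of Stag3 at position -30, counted from the annotated start. E-boxes were found in windows of 5 of the 10 genes, namely Sycp1, Sycp3, Syce2, Hormad1 and Stag3, and in 7.15% of all windows. The E2F-type motif was found in 9 of the 10 genes, all but Sycp2, and in 20.0% of all windows. The CRE-type motif was found in Syce2 alone among the 10, and in 20.8% of all windows. The windows of the 10 genes were rich in CG, with 10 to 33 CG dinucleotides against a median of 7 over all windows. Among the 14281 windows with at least 10 CG, a limit chosen after seeing the genes' values, the shares were 10.3% for the NRF1 motif, 10.9% for the E-box, 40.3% for the E2F-type motif and 33.1% for the CRE-type motif. A match of letters does not show that a factor is bound there.

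Library totals ran from 26063590 to 39365841 counts, with a median of 33862160. Germ cells were present in every library, with Ddx4 between 17.5 and 85.2 CPM (counts scaled to library size) and Dazl between 21.4 and 176 CPM. Sertoli cell markers, 10 genes, summed to between 4035 and 7520 CPM per library. Of 12 markers of late spermatocytes and spermatids, 9 were in the tables, and these summed to between 2.36 and 7.01 CPM. Acrv1, Pgk2, Acr and Spata16 of that list had no counts in at least 1 library. Nrf1 transcripts lay between 45.0 and 60.8 CPM in all 11 libraries and Dnmt3c between 3.02 and 4.94 CPM. Nrf1 overlapped between Nrf1 cKO and WT. All dKO libraries, at 56.9 CPM and above, were higher than all Dnmt3C KO libraries, at 55.6 CPM and below, against the direction of the labelled deletion. In that comparison 6.7% of all features were higher without overlap. Dnmt3c overlapped between all 4 genotypes. Counts over a whole gene in whole testis thus do not check the labels, and each genotype given here is that of the label.

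The 10 genes differed widely in level, which was compared per kilobase of exon (CPM per kb). Syce2 was the highest with a mean of 19.0 CPM per kb over the 11 libraries. Smc1b followed with 5.81, Stag3 with 4.97, Dmc1 with 3.81, Sycp1 with 3.07, Sycp3 with 2.73 and Sycp2 with 1.86 CPM per kb. Hormad1 had 1.17, Rec8 1.06 and Meioc 0.573 CPM per kb. In WT, Syce2 at 19.5 ± 4.42 CPM per kb (SD, n = 2) stood above all others, while Smc1b at 6.70 ± 0.498 and Stag3 at 5.77 ± 1.78 CPM per kb (SD, n = 2 each) were closer than their spread. The lowest single count was 7 reads, for Hormad1 in an Nrf1 cKO library, and the highest was 2236 reads, for Stag3 in a Dnmt3C KO library.

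Summed over the 10 genes, the level was lowest in Nrf1 cKO. The sum was 143 and 152 CPM in the WT libraries. It was 239, 132 and 171 CPM in Dnmt3C KO, and 159, 132 and 90.3 CPM in dKO. In Nrf1 cKO it was 90.8, 74.1 and 70.0 CPM, below both WT and all Dnmt3C KO libraries, and overlapping dKO through the third dKO library. Syce2 made up 26.0% ± 4.75 (SD, n = 2) of the sum in WT and 37.8% ± 4.17 (SD, n = 3) in Nrf1 cKO.

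**Figure D1:**
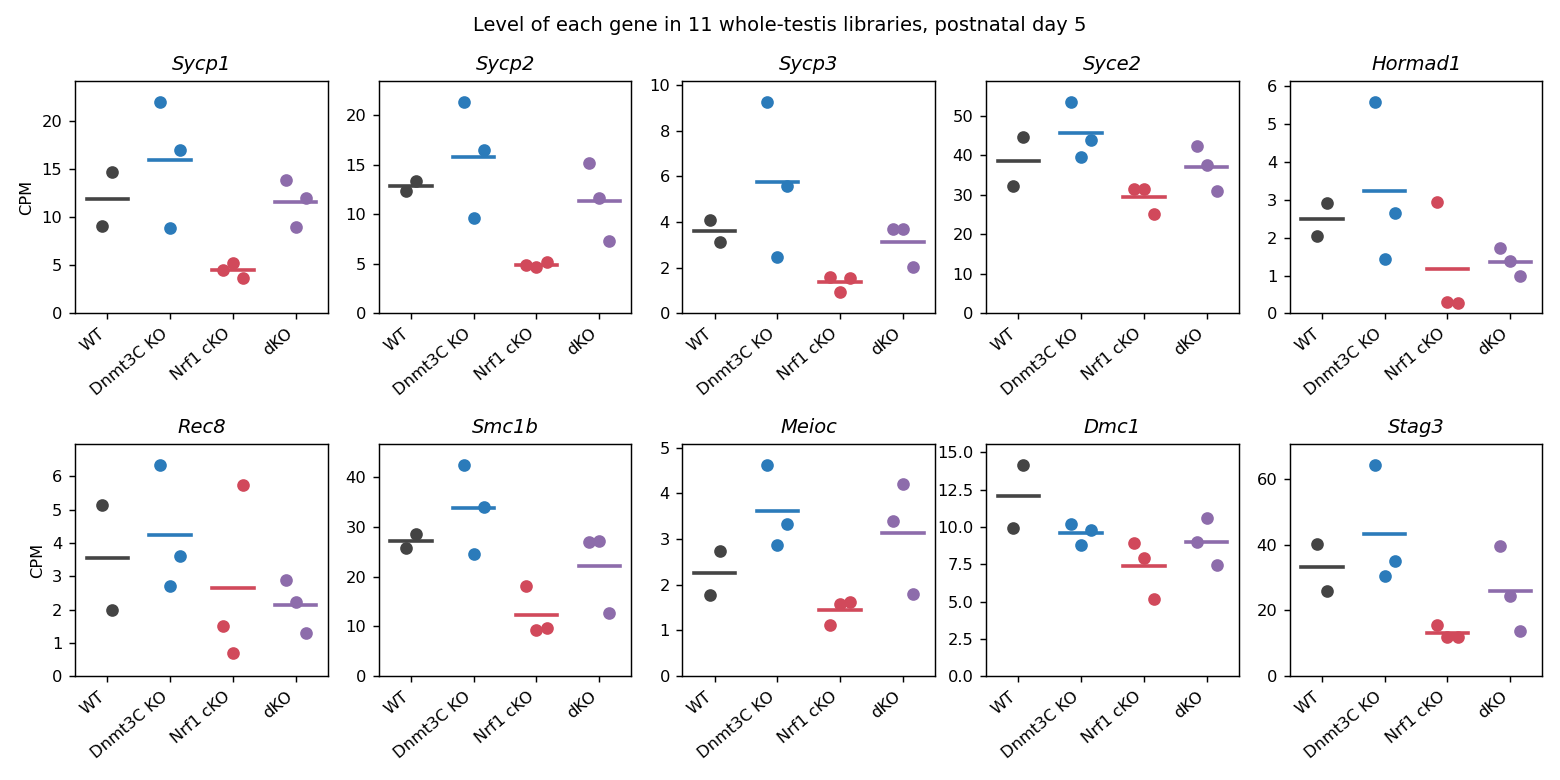
Level of each of the 10 genes in CPM (y axis, linear, starting at 0) in the 11 libraries, grouped by genotype on the x axis; points are libraries and lines are group means. All 3 Nrf1 cKO libraries lie below both WT libraries for 8 genes, while Rec8 and Hormad1 each have an Nrf1 cKO library at the WT level.

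The first comparison asked how Nrf1 deletion in germ cells bears on these genes where DNMT3C is intact. In Nrf1 cKO over WT, all 10 genes had a log2 fold change below 0, as had 49.7% of the 21296 features tested. Their median was -1.11, with a range from -1.42 to -0.39, against a median of 0.00 over all features. Nrf1 cKO libraries lay below both WT libraries, without overlap, for 8 genes, where 11.6% of all features did so. By edgeR's quasi-likelihood test with Benjamini-Hochberg adjustment over all features, 0 of the 10 genes passed an adjusted p of 0.01, as did 0.0% of all features, with a lowest adjusted p of 0.395 among the 10. At an unadjusted p under 0.05, 6 genes were lower (4.22% of all features) and 0 were higher (1.53%). DESeq2 called 3 genes lower, Sycp1, Sycp2 and Stag3, and 0.079% of its 32905 features in either direction. Here and below, the features of DESeq2 include low counts that the filter before edgeR left out.

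Among the proteins of the synaptonemal complex, Sycp1 (chr3:102818499-102936100), the transverse filament, was at 9.10 and 14.7 CPM in WT and at 4.52, 5.25 and 3.72 CPM in Nrf1 cKO. The Nrf1 cKO libraries were close to each other and all below WT. The log2 fold change was -1.40 ± 0.29 (SE), with an edgeR adjusted p of 0.606 and a DESeq2 adjusted p of 0.00999. Syce2 (chr8:84872111-84888221), of the central element, was at 32.3 and 44.6 CPM in WT and at 31.5, 31.5 and 25.2 CPM in Nrf1 cKO. These groups were separate by less than the distance between the WT libraries, and Syce2 had the smallest difference of the 10 genes, -0.39 ± 0.20 on the log2 scale (SE; edgeR adjusted p = 0.915).

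Next came the genes of the axis filament. Sycp2 (chr2:178345293-178407685) was at 12.3 and 13.3 CPM in WT and at 4.89, 4.71 and 5.19 CPM in Nrf1 cKO. This was the tightest separation of the 10 genes, with a log2 fold change of -1.39 ± 0.24 (SE), an edgeR adjusted p of 0.395 and a DESeq2 adjusted p of 0.00031. Sycp3 (chr10:88459569-88473236), whose protein lines the axis with SYCP2, was at 4.10 and 3.13 CPM in WT and at 1.58, 0.953 and 1.55 CPM in Nrf1 cKO. Its log2 fold change of -1.42 ± 0.38 (SE) was the lowest of the 10, with an edgeR adjusted p of 0.784. Exons of Sycp3 overlap those of Chpt1 on the other strand, and the counting was by strand. Hormad1 (chr3:95559677-95587671) was at 2.05 and 2.92 CPM in WT and at 2.95, 0.299 and 0.271 CPM in Nrf1 cKO. The first Nrf1 cKO library was thus above WT and the other two far below it, and the log2 fold change was -1.07 ± 0.84 (SE; edgeR adjusted p = 0.963), or -3.11 without that library.

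Among the meiotic cohesins, Stag3 (chr5:138280240-138312393) was at 40.3 and 25.9 CPM in WT and at 15.7, 11.9 and 11.9 CPM in Nrf1 cKO. The groups did not overlap, and the log2 fold change was -1.34 ± 0.24 (SE), with an edgeR adjusted p of 0.448 and a DESeq2 adjusted p of 0.0029. Smc1b (chr15:85064689-85131964) was at 25.7 and 28.5 CPM in WT and at 18.0, 9.28 and 9.60 CPM in Nrf1 cKO, again with no overlap and a log2 fold change of -1.14 ± 0.29 (SE; edgeR adjusted p = 0.735). Rec8 (chr14:55618037-55625395) was at 5.13 and 1.98 CPM in WT and at 1.52, 0.708 and 5.73 CPM in Nrf1 cKO. The groups overlapped through the third Nrf1 cKO library, and the log2 fold change was -0.46 ± 0.74 (SE; edgeR adjusted p = 0.991). It was -1.70 without that library and 0.42 without the first WT library, so that Rec8 had no stable direction.

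Dmc1 and Meioc are the genes whose proteins are not part of the axis or the synaptonemal complex. Dmc1 (chr15:79561497-79605109) was at 9.94 and 14.2 CPM in WT and at 8.96, 7.95 and 5.19 CPM in Nrf1 cKO. Its log2 fold change was -0.71 ± 0.29 (SE; edgeR adjusted p = 0.852). Meioc (chr11:102663716-102682237) was at 1.78 and 2.74 CPM in WT and at 1.12, 1.58 and 1.63 CPM in Nrf1 cKO, with a log2 fold change of -0.65 ± 0.39 (SE; edgeR adjusted p = 0.943). Both sets of Nrf1 cKO values lay below WT, by less than the distance between the WT libraries. Without the second WT library, Dmc1 was at -0.43, Meioc at -0.31 and Syce2 at -0.14.

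The same deletion was then compared where DNMT3C was absent, as dKO over Dnmt3C KO. All 10 genes again had a log2 fold change below 0, as had 47.4% of 20783 features, with a median of -0.54 and a range from -1.24 to -0.09. The median was -0.27 without the first Dnmt3C KO library and -0.77 without the first dKO library. The libraries of the 2 genotypes overlapped for each of the 10 genes, while 6.9% of all features were lower without overlap. The edgeR test called 0 of the 10 genes and 0.0% of all features, and the lowest adjusted p among the 10 was 0.675. At an unadjusted p under 0.05, 2 genes, Hormad1 and Rec8, were lower (4.08% of all features) and 0 were higher (3.1%), and DESeq2 called 0 of the 10 (0.0567% of its features). Hormad1 was at 5.57, 1.45 and 2.64 CPM in Dnmt3C KO and at 1.72, 1.39 and 0.978 CPM in dKO. Its log2 fold change was -1.24 ± 0.47 (SE; edgeR adjusted p = 0.675), or -0.58 without the first Dnmt3C KO library, which had the highest level of 9 of the 10 genes among all 11 libraries. Sycp1 was at 21.9, 8.90 and 17.0 CPM in Dnmt3C KO and at 13.9, 8.96 and 12.0 CPM in dKO, a log2 fold change of -0.46 ± 0.30 (SE; edgeR adjusted p = 0.704). Without the first Dnmt3C KO library Sycp1 was at -0.16 and Sycp3, at -0.88 with all libraries, was at -0.36.

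Over both Dnmt3C backgrounds together, 6 libraries with Nrf1 deleted were compared with 5 with Nrf1 intact in an additive fit. The median of the 10 genes was -0.86 against 0.00 over 22594 features, and all 10 were below 0, as were 49.7% of all features. At an unadjusted p under 0.05, 7 genes were lower (4.32% of all features) and 0 were higher (3.55%). The edgeR test called 0 of the 10 genes and 0.00443% of all features, with a lowest adjusted p of 0.344 among the 10, and DESeq2 called 0 of the 10 and 0.114% of its features. For none of the 10 genes were the 6 libraries all below the 5, which 0.451% of all features were. Hormad1 had the lowest log2 fold change, -1.16 ± 0.52, followed by Sycp3 with -1.11 ± 0.31 and Stag3 with -1.001 ± 0.26 (SE each). Sycp2 was at -0.88 ± 0.24, Sycp1 at -0.87 ± 0.25, Smc1b at -0.84 ± 0.23 and Rec8 at -0.75 ± 0.46 (SE each). Meioc at -0.39 ± 0.25, Dmc1 at -0.37 ± 0.18 and Syce2 at -0.34 ± 0.12 (SE each) formed the other end. Hormad1 ranged from -1.86 without the first Nrf1 cKO library to -0.83 without the first Dnmt3C KO library, so that its place in this order rests on single libraries. Rec8 was at -1.25 without the third Nrf1 cKO library, and Meioc at -0.23 and Dmc1 at -0.20 without the second WT library.

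**Figure D2:**
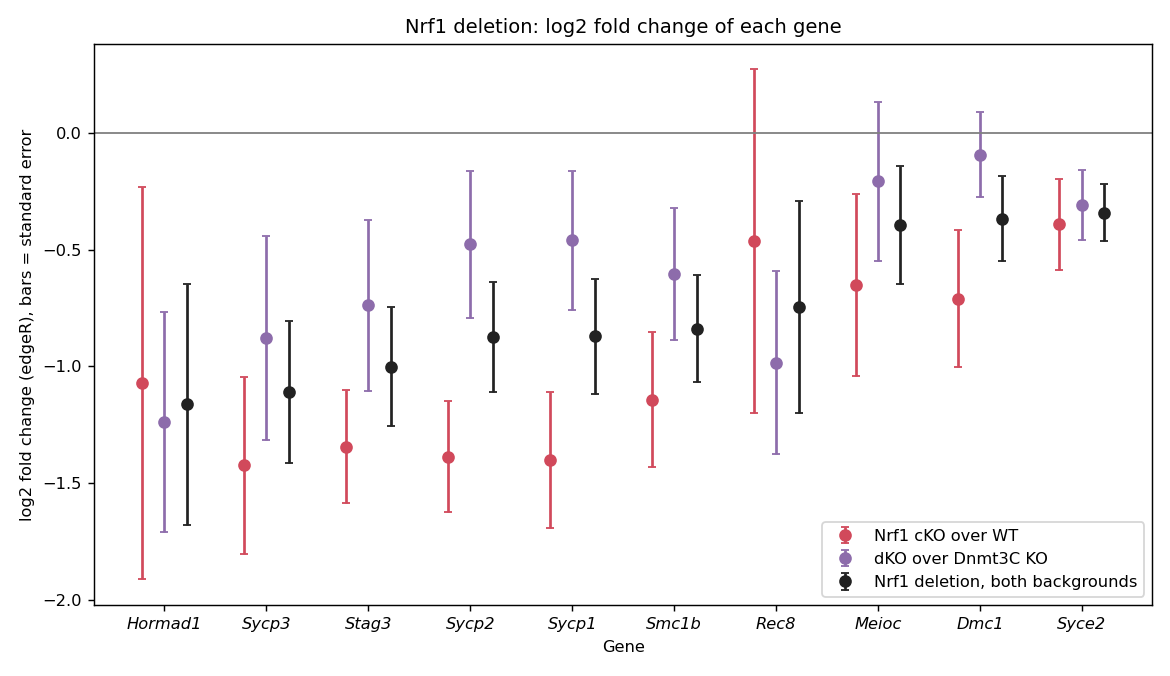
Log2 fold change from edgeR (y axis; bars are standard errors) of each gene (x axis, ordered by the additive fit) for Nrf1 cKO over WT, dKO over Dnmt3C KO and both backgrounds together. Every point lies below 0, the medians are -1.11, -0.54 and -0.86, and the bars of Hormad1 and Rec8 in Nrf1 cKO over WT are the widest.

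Whether the Nrf1 difference depended on DNMT3C was tested as an interaction over the 11 libraries. The interaction term was above 0 for 8 of the 10 genes, as for 49.2% of all features, meaning a smaller reduction where DNMT3C was absent, with a median of 0.54 on the log2 scale, or 0.33 without the second Dnmt3C KO library. After adjustment in edgeR, 0 of the 10 genes and 0.0% of all features passed, and 0 of the 10 had an unadjusted p under 0.05 in either direction (3.68% of all features above 0 and 1.87% below). DESeq2 called 0 of the 10 and 0.0% of its features. Sycp1 had the highest term, 0.94 ± 0.45 (SE; edgeR adjusted p = 0.903; 0.54 without the second WT library), and the difference between the backgrounds was thus not shown. The terms of Rec8, Syce2 and Hormad1 changed sign when 1 library was left out.

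The effect of DNMT3C loss was compared in the same way. In Dnmt3C KO over WT the median of the 10 genes was 0.34, and 9 of 10 were above 0, as were 50.8% of 21664 features. Without the first Dnmt3C KO library the median was 0.079, and Hormad1 (-0.28), Rec8 (-0.16) and Stag3 (-0.0012) were below 0. Rec8 was also below 0, at -0.27, without the second WT library. Red blood cell markers stood apart in the same comparison, with 5 of 5 lower at an unadjusted p under 0.05, a median of -1.24 and 0 called by edgeR. They summed to between 659 and 2124 CPM in WT and between 545 and 790 CPM in Dnmt3C KO, and their part in the result was not tested. With edgeR, 0 of the 10 genes and 0.0% of all features passed, with adjusted p of 0.898 and above among the 10. No gene had an unadjusted p under 0.05 (2.56% of all features higher and 2.86% lower), and DESeq2 called 0 of the 10 (0.0751% of its features). Meioc alone had all its Dnmt3C KO libraries, at 4.63, 2.87 and 3.34 CPM, above both WT libraries, as 9.78% of all features did. Dmc1 was the gene below 0, at -0.33 ± 0.21 on the log2 scale (SE; edgeR adjusted p = 0.943), or -0.036 without the second WT library and -0.55 without the first, and its Dnmt3C KO libraries were at 10.2, 8.82 and 9.79 CPM.

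In dKO over Nrf1 cKO, where NRF1 was missing from germ cells on both sides, the median of the 10 genes was 0.92 and 9 of 10 were above 0, as were 48.3% of 20381 features. That median was 0.61 without the first dKO library and 1.21 without the third. For 4 genes, Sycp1, Sycp2, Sycp3 and Meioc, every dKO library was above every library of Nrf1 cKO, as it was for 4.14% of all features. The edgeR test called 0 of the 10 genes and 0.0% of all features, with a lowest adjusted p of 0.692 among the 10. At an unadjusted p under 0.05, 6 genes were higher (1.94% of all features) and 0 were lower (0.868%), and DESeq2 called 1 gene, Sycp1, and 0.0241% of its features. Sycp1 was at 13.9, 8.96 and 12.0 CPM in dKO against 4.52, 5.25 and 3.72 CPM in Nrf1 cKO, and the log2 fold change was 1.37 ± 0.24 (SE; edgeR adjusted p = 0.692, DESeq2 adjusted p = 0.000323). Sycp2 was at 15.1, 11.7 and 7.31 CPM in dKO, with a log2 fold change of 1.21 ± 0.27 (SE; edgeR adjusted p = 1.00). Meioc was at 3.40, 4.20 and 1.80 CPM in dKO, with a log2 fold change of 1.12 ± 0.38 (SE; edgeR adjusted p = 1.00). Rec8 was the gene below 0, at -0.29 ± 0.67 (SE; edgeR adjusted p = 1.00), but it was at 0.95 without the third Nrf1 cKO library. Hormad1, at 0.21, ranged from -0.25 to 2.24 when single libraries were left out, so that neither gene kept its direction.

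Over both Nrf1 backgrounds, DNMT3C loss gave a median of 0.66 for the 10 genes and 9 of 10 above 0, as were 48.6% of 22594 features. Rec8 at -0.047 and Dmc1 changed sign when 1 library was left out. Germ cell markers moved with the 10 genes, with 26 of 30 above 0, a median of 0.31 and 6 higher at an unadjusted p under 0.05. Red blood cell markers (5 of 5 below 0, median -0.92) and endothelial markers (4 of 4 below 0, median -0.41) went the other way, with 2 and 1 lower at that p, and edgeR called 0 genes of these lists. At an unadjusted p under 0.05, 7 genes were higher (1.9% of all features) and 0 were lower (0.996%). With edgeR, 0 of the 10 genes and 0.00443% of all features passed, with a lowest adjusted p of 0.826 among the 10, and DESeq2 called 0 of the 10 (0.073% of its features). Sycp3 at 0.96 ± 0.31, Sycp1 at 0.93 ± 0.25 and Meioc at 0.92 ± 0.26 (SE each) were the highest log2 fold changes, and Dmc1 at 0.01 ± 0.18 was among the lowest.

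The remaining comparisons set the double mutant against WT and the single mutants against each other. In dKO over WT the median was -0.25 (-0.027 without the third dKO library and -0.44 without the first), and 9 of the 10 genes were below 0, as were 48.9% of 21488 features. Of those 9 genes, Sycp1, Sycp2, Sycp3, Syce2 and Rec8 turned above 0 when 1 library was left out. Red blood cell markers were again lower in 5 of 5 at an unadjusted p under 0.05, with a median of -1.48 and 0 called by edgeR. Of 30 germ cell markers, 28 were below 0, with a median of -0.60 and 7 lower at that p. All 10 Sertoli cell markers were above 0, with a median of 0.28 and 0 higher at that p. With edgeR, 0 of the 10 genes and 0.0% of all features passed (adjusted p of 1.00 for each), and DESeq2 called 0 of the 10 (0.012% of its features). Hormad1 alone was lower at an unadjusted p under 0.05 (1.19% of all features) and without overlap (6.76% of all features), with a log2 fold change of -0.86 ± 0.38 (SE). No gene was higher at that p (0.544% of all features). In Nrf1 cKO over Dnmt3C KO, all 10 genes were below 0, as were 48.0% of 20642 features, with a median of -1.44. There 30 of 30 germ cell markers were below 0, with a median of -1.24 and 20 lower at an unadjusted p under 0.05. All 10 Sertoli cell markers were above 0, with a median of 0.46 and 1 higher at that p. With edgeR, 0 of the 10 genes and 0.0% of all features passed, and the lowest adjusted p was 0.0662, of Stag3. At an unadjusted p under 0.05, 7 genes were lower (6.27% of all features) and 0 were higher (4.32%), and 7 did not overlap (9.45%). DESeq2 called 6 genes lower, Sycp1, Sycp2, Sycp3, Smc1b, Meioc and Stag3, and 0.634% of its features. The comparisons share libraries, so that their values for a gene are not independent of each other.

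Markers of germ cells moved with these genes. In bulk tissue, fewer germ cells and less RNA of a gene per germ cell cannot be told apart. The list held 30 germ cell markers, none of them among the 10 genes. They summed to 651 and 807 CPM in WT, from 640 to 1064 CPM in Dnmt3C KO, from 283 to 525 CPM in Nrf1 cKO and from 338 to 637 CPM in dKO. In Nrf1 cKO over WT, 29 of the 30 markers were below 0 with a median of -1.14 on the log2 scale, and in dKO over Dnmt3C KO 29 of 30 were below 0 with a median of -0.78. With edgeR, 0 of the 30 passed in either comparison, while 19 and 14 were lower at an unadjusted p under 0.05. In the additive fit, Ddx4, an RNA helicase of germ cells, was at -0.95 ± 0.23 (SE; edgeR adjusted p = 0.341) and Dazl, an RNA-binding protein of germ cells, was at -1.17 ± 0.30 (SE; edgeR adjusted p = 0.344). Sertoli cell markers went the other way, with all 10 above 0 in Nrf1 cKO over WT and a median of 0.48, and 8 of 10 above 0 in dKO over Dnmt3C KO with a median of 0.27. Other somatic markers differed in sign between the 2 comparisons. Macrophage markers had a median of 0.27 in Nrf1 cKO over WT, 4 of 4 above 0, and of -0.44 in dKO over Dnmt3C KO, 4 of 4 below 0. Medians in the same order were 0.29 and -0.20 for Leydig cells, 0.02 and -0.37 for peritubular cells and 0.47 and -0.05 for endothelial cells. Red blood cell markers were below 0 in 5 of 5 with a median of -0.82 in Nrf1 cKO over WT and in 4 of 5 with a median of -0.40 in dKO over Dnmt3C KO. In dKO over Nrf1 cKO, where the 10 genes had a median above 0, red blood cell markers had a median of -0.69 and endothelial markers of -0.68, with 1 of 4 lower at an unadjusted p under 0.05, while 27 of 30 germ cell markers were above 0 with a median of 0.52 and 3 higher at that p. In Nrf1 cKO over Dnmt3C KO, endothelial markers had a median of 0.64, with 3 of 4 higher at an unadjusted p under 0.05, and in Dnmt3C KO over WT macrophage markers had a median of 0.43, with 2 of 4 higher, and Leydig cell markers of 0.24, with 2 of 6 higher. Of the germ cell markers in that comparison, 3 of 30 were higher and 1 lower at that p, with a median of 0.12. Of these lists 0 genes were called by edgeR, and their part in the results was not tested.

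As a mean of log2 CPM, the germ cell markers were at 4.08 and 3.70 in WT and at 4.47, 3.75 and 3.86 in Dnmt3C KO. They were at 3.40, 2.04 and 2.27 in Nrf1 cKO and at 3.60, 3.52 and 2.50 in dKO. The first Nrf1 cKO library had more germ cell marker RNA than the other two, and it was the library with Hormad1 at the WT level. Rec8 did not follow this order, since its highest Nrf1 cKO level, 5.73 CPM, was in the third library, with a germ cell marker mean of 2.27. The third dKO library, with the lowest germ cell markers of its genotype, also had the lowest dKO level of 9 of the 10 genes. The mean of the 10 genes minus the mean of the germ cell markers was -0.71 ± 0.32 (SD, n = 2) for WT, and for Dnmt3C KO it was -0.56 ± 0.22 (SD, n = 3). For Nrf1 cKO it was -0.49 ± 0.45 (SD, n = 3), and for dKO it was -0.31 ± 0.20 (SD, n = 3). The ranges of this difference overlapped between each pair of genotypes but WT and dKO, where the highest WT library was at -0.482 and the lowest dKO library at -0.480.

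**Figure D3:**
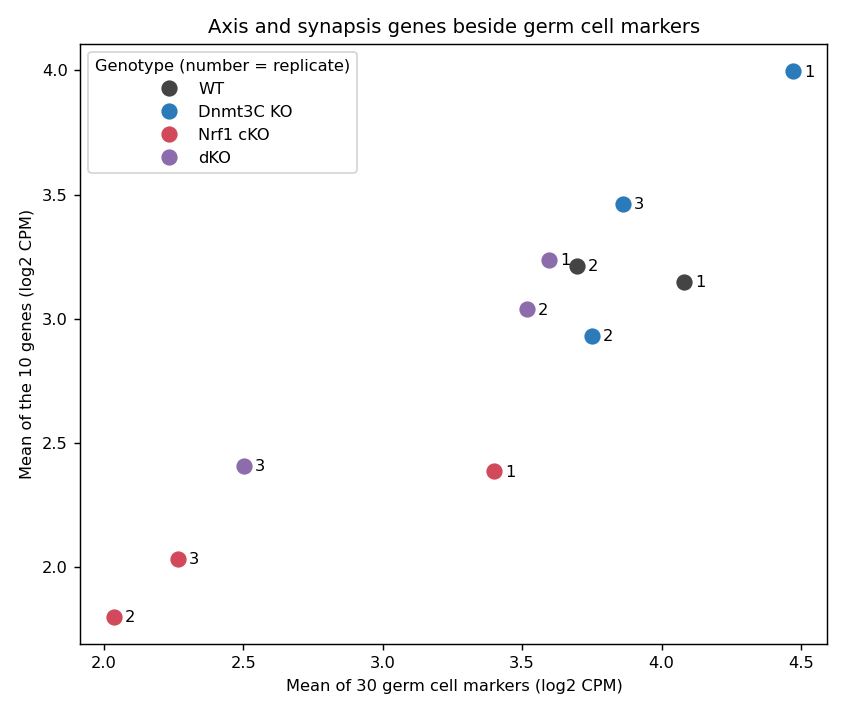
Mean log2 CPM of the 10 genes (y axis) against the mean log2 CPM of 30 germ cell markers (x axis) in each of the 11 libraries, with the genotype as colour and the replicate as number. The second and the third Nrf1 cKO libraries, with germ cell marker means of 2.04 and 2.27, lie at the lower left, and the third dKO library, at 2.50, lies next to them.

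With the germ cell markers set equal between libraries, in place of library size, the values of all features after Nrf1 deletion moved up by construction. In Nrf1 cKO over WT the median of the 10 genes became 0.10, while the median over all features became 1.442. In dKO over Dnmt3C KO the median of the 10 genes became 0.26, and in the additive fit it became 0.25, against 1.13 over all features. Hormad1 at -0.30 and Sycp3 at -0.02 stayed below 0 in the additive fit, while Syce2 at 0.76, Dmc1 at 0.70 and Meioc at 0.68 were the highest. With edgeR on this scale, 0 of the 10 genes passed in any of the 9 comparisons, and the lowest adjusted p was 0.0667, of Dmc1 in Nrf1 cKO over Dnmt3C KO. Over all features, 36.6% passed in the additive Nrf1 fit, 8268 of these 8278 features being higher, and at most 0.245% passed in any other comparison. The DNMT3C difference over both Nrf1 backgrounds had a median of 0.17 on this scale, against -0.44 over all features.

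**Figure D4:**
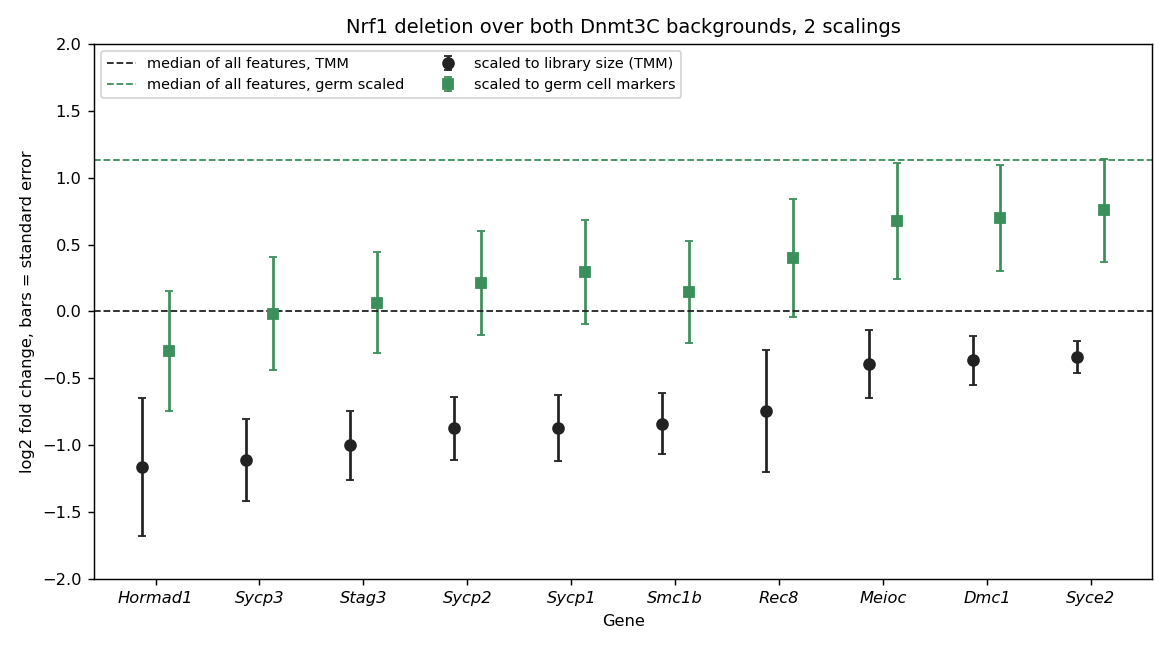
Log2 fold change after Nrf1 deletion over both Dnmt3C backgrounds (y axis; bars are standard errors) for each gene (x axis) with libraries scaled to library size (circles) or to germ cell markers (squares); dashed lines are the medians over all features, 0.00 and 1.13. The 10 genes lie below 0 on the first scale and between -0.30 and 0.76 on the second.

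The meiotic cohesins were set beside the proteins that serve in their place in other dividing cells, which somatic cells of the testis also make. Per kilobase of exon, Smc1b was at 21.3% and 18.4% of Smc1a in WT and at 11.6%, 7.83% and 7.91% in Nrf1 cKO. It was at 40.8%, 20.0% and 25.8% in Dnmt3C KO and at 23.0%, 18.7% and 10.2% in dKO, so that the third dKO library lay among those of Nrf1 cKO. Stag3 was at 65.1% and 45.1% of Stag1 in WT and at 26.9%, 23.5% and 20.7% in Nrf1 cKO. Rec8 was at 1.55% ± 0.956 (SD, n = 2) of Rad21 in WT and at 1.11% ± 1.12 (SD, n = 3) in Nrf1 cKO, which overlapped. The 9 cohesin genes of all dividing cells, Smc1a, Smc3, Rad21, Stag1, Stag2, Pds5a, Pds5b, Wapl and Nipbl, had a median log2 fold change of -0.16 in Nrf1 cKO over WT, with 8 below 0 and 1 above 0. In dKO over Dnmt3C KO all 9 were above 0, with a median of 0.18. The additive Nrf1 fit gave them a median of 0.035, which averages these opposite signs, and the interaction was above 0 for all 9, with 3 at an unadjusted p under 0.05 and 0 called by edgeR.

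**Figure D5:**
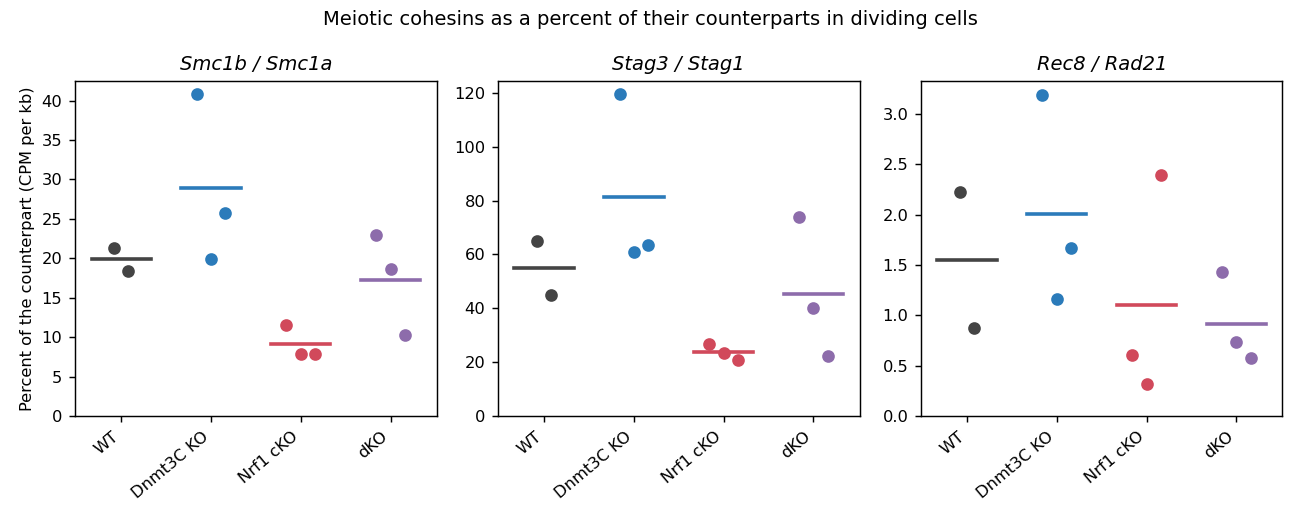
Level of Smc1b, Stag3 and Rec8 as a percent of Smc1a, Stag1 and Rad21 (y axis, from CPM per kb of exon, linear and starting at 0) in each library by genotype (x axis); points are libraries and lines are group means. For Smc1b and Stag3 all 3 Nrf1 cKO libraries lie below both WT libraries, at 7.83% to 11.6% and 20.7% to 26.9%.

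Other genes of the meiotic programme were taken from lists by role, and edgeR called 0 of them in the additive Nrf1 fit. Of 8 further synaptonemal complex and axis genes, 7 passed the filter, and all 7 were below 0 with a median of -0.77, 4 of them at an unadjusted p under 0.05. Syce1, a central element protein, was at -2.04 ± 0.76 (SE; edgeR adjusted p = 0.548), with group means of 10.9 CPM in WT, 14.6 CPM in Dnmt3C KO, 1.94 CPM in Nrf1 cKO and 4.51 CPM in dKO. Tex12, also of the central element, was at -1.46 ± 0.49, Syce3 of the same structure at -1.17 ± 0.28 and Hormad2, a paralog of Hormad1, at -0.77 ± 0.27 (SE each).

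Of 7 regulators of meiotic entry, 5 were below 0 and 4 were lower at an unadjusted p under 0.05. Stra8, the retinoic acid target that starts the meiotic programme with MEIOSIN, was at -1.09 ± 0.43 (SE; edgeR adjusted p = 0.589). Its group means were 13.9 CPM in WT, 22.05 CPM in Dnmt3C KO, 4.88 CPM in Nrf1 cKO and 13.1 CPM in dKO. Tex15 was at -1.19 ± 0.38, Rbm46 at -0.55 ± 0.19 and Mei1 at -1.13 ± 0.48 (SE each). Of 7 genes of double-strand break formation, 6 were below 0 and 4 lower at that p, with Rec114 at -1.08 ± 0.25, Top6bl at -1.03 ± 0.31, Ankrd31 at -1.48 ± 0.53 and Iho1 at -0.53 ± 0.21 (SE each). Of 15 genes of recombination and crossover, 14 were below 0 and 7 lower at that p. Tex11, an X-linked crossover protein, had the lowest edgeR adjusted p of these lists, 0.214, with a log2 fold change of -1.24 ± 0.24 (SE). Ccnb1ip1 was at -1.08 ± 0.34, Hsf2bp at -1.19 ± 0.40 and Mlh3 at -0.30 ± 0.09 (SE each). Of 6 genes that tie telomeres to the nuclear envelope, 5 were below 0 with a median of -0.31 and 0 at that p, with Sun1 at 0.20 ± 0.10 and Terb2 at -0.84 ± 0.44 (SE each). In this fit 49.7% of all features were below 0 and 4.32% lower at that p.

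Among themselves, the 10 genes did not follow a single profile over the 11 libraries. After centring each gene's log2 CPM, Smc1b was closest to the mean profile of the other 9, with a root mean square difference of 0.19 on the log2 scale, followed by Sycp2 with 0.21 and Stag3 with 0.29. Hormad1 with 0.87 and Rec8 with 0.83 were the farthest. Over 13855 other protein-coding genes with a mean of at least 1 CPM, the profiles closest to the mean of the 10 genes were those of Xlr4a with 0.15, Pnldc1 with 0.15, Scml2 with 0.18, Tex14 with 0.20 and Asb9 with 0.20. Pnldc1, for example, was at 13.4 CPM in WT, 16.9 CPM in Dnmt3C KO, 6.62 CPM in Nrf1 cKO and 12.6 CPM in dKO as group means.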

How the data were processed

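The authors aligned stranded, poly-A selected reads to GRCm38 with STAR 2.7.3a, used TEtranscripts in multi-mapping mode to count genes and TE subfamilies, and deposited whole-number counts for each pair of genotypes beside their own DESeq2 1.44.0 comparisons. Those deposited fold changes, p-values, scores (mean normalized counts) and test statistics were not used here, nor was a deposited table of TPM for TE copies. The authors left out 1 library of each genotype for RNA quality. The tables were joined by feature, and the counts of a library did not differ between tables.

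Counts were scaled to CPM with TMM factors, and log2 CPM carry a prior count of 1. The main test was edgeR 4.0.16 in R 4.3.3 (filterByExpr, glmQLFit and glmQLFTest) with p-values adjusted by Benjamini-Hochberg over all features tested, TE subfamilies included, and a threshold of 0.01. It was run on the libraries of each of 6 pairs of genotypes, and on all 11 libraries for the additive Nrf1 and Dnmt3C terms and their interaction. A standard error is the absolute log2 fold change over the square root of F. DESeq2 1.42.0 was an alternative. The fits were also run on simulated counts, with an outcome that is not given here. Coordinates and exon lengths came from GENCODE M21 on GRCm38, while the authors used release M25. The counts carry no molecular identifiers, so the depth bounds counting error only. No library duplicated another of its genotype, since the chi-square per degree of freedom between replicates was between 17.6 and 61.8.

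The genes, the lists and the rule for named genes were chosen with earlier results of these data known. The rule named the 10 genes, Nrf1, Dnmt3c, Ddx4, Dazl, up to 4 genes of each pathway list with the smallest unadjusted p in the additive Nrf1 fit, and the 5 genes most like the mean profile. Genes of these lists outside the rule were named only for the marker checks, and Chpt1 and the counterpart genes for what they are to a member. One gene of the counterpart list is not reported here. Marker lists also covered macrophages, red blood cells and Leydig, peritubular and endothelial cells.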

Additional observations from a re-analysis of the deposited data

How the results depend on the processing

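Results were recomputed with the Wald test or the size factors of DESeq2, without a filter, at an adjusted p of 0.05, with a replicate block, without each library, with library sizes of genes only, on the scale of germ cell markers and, for pairs, in 1 fit of all 4 genotypes. Against 0 genes called by the main test, the DESeq2 Wald test called 3 of the 10 genes in Nrf1 cKO over WT, 6 in Nrf1 cKO over Dnmt3C KO and 1 in dKO over Nrf1 cKO. Without a filter on low counts edgeR called 4 in Nrf1 cKO over WT (0.419% of all features) and 4 in Nrf1 cKO over Dnmt3C KO (0.231%). The cause of these differences was not tested. Apart from the replicate block, given last, every other count of genes called stayed at 0, also without each library. Scaling to germ cell markers moved the median log2 fold change of the 10 genes to 0.10 in Nrf1 cKO over WT, 0.26 in dKO over Dnmt3C KO, 0.18 in dKO over Nrf1 cKO, 0.36 in dKO over WT, -0.025 in Nrf1 cKO over Dnmt3C KO, 0.25 and 0.17 in the additive Nrf1 and Dnmt3C terms and 0.0061 in the interaction. The other 118 medians under an alternative stayed within the spread between replicates. On the germ cell scale, single genes that turned above 0 in the additive Nrf1 fit were Sycp1 (0.29), Sycp2 (0.21), Syce2 (0.76), Rec8 (0.40), Smc1b (0.15), Meioc (0.68), Dmc1 (0.70) and Stag3 (0.066). In Nrf1 cKO over WT they were Sycp1 (0.011), Sycp2 (0.049), Syce2 (1.01), Rec8 (1.13), Smc1b (0.12), Meioc (0.82), Dmc1 (0.64) and Stag3 (0.082). In dKO over Dnmt3C KO they were Sycp1 (0.52), Sycp2 (0.34), Sycp3 (0.0001), Syce2 (0.55), Smc1b (0.17), Meioc (0.57), Dmc1 (0.74) and Stag3 (0.053). This scaling sets the germ cell markers equal and raises all features after Nrf1 deletion by construction, so the signs carry no test. With the replicate block the median in dKO over WT was -0.0275. The third dKO library did not bear on it, since no WT library has its number. Leaving out 1 library gave Rec8 values from -1.70 to 0.42 in Nrf1 cKO over WT, above 0 without WT replicate 1. In dKO over Dnmt3C KO it gave Meioc values from -0.48 to 0.074, above 0 without Dnmt3C KO replicate 1 or dKO replicate 3, and Dmc1 values from -0.23 to 0.03, above 0 without dKO replicate 3. Without a WT library, the lone WT sample is assumed to vary like the other genotype.

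The file columns number the third Dnmt3C KO and dKO libraries differently from the sample titles, and the titles' numbers were used. Libraries that share such a number had correlations of their deviations from the group means between -0.23 and 0.22 over 15 pairs. Those with different numbers had correlations between -0.26 and 0.30 over 30 pairs. Deviations within a genotype are tied to each other, so these values cannot exclude a pairing by number. With the replicate number as a block, edgeR called 2 genes in Nrf1 cKO over WT (0.409% of all features), Sycp2 (-1.42, adjusted p = 0.0061) and Stag3 (-1.25, adjusted p = 0.000235), and 0 in the other comparisons. No WT library has the third number, so the third Nrf1 cKO library did not bear on that difference. These calls thus rest on the remaining libraries, with little residual freedom for the test.

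With 2 or 3 libraries a genotype, single libraries moved the Nrf1 cKO over WT values of Hormad1, Rec8, Syce2, Meioc and Dmc1 by over 1.5 times, and the cause was not tested.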
